A study of Mus musculus with 4 samples.

Results

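The nuclear genes of the mitochondrial respiratory chain were examined in oligodendrocytes, the brain cells that wrap axons in myelin. Members were the rows of the expression table whose symbols begin with Nduf, Uqcr, Atp5 or Cox followed by a digit from 4 to 8, together with Sdha to Sdhd, Cycs and Usmg5, leaving out names of pseudogenes. This gave 94 of the 35869 rows. Of these, 85 encode subunits or cytochrome c, 7 encode assembly factors of complex I, and Atp5s and Atp5sl carry ATP synthase names but were not counted as subunits. Cells positive for the surface lipid antigens O4 and GalC had been sorted by flow cytometry from mouse cortex at postnatal day 5. The study has 4 libraries: WT 1 and WT 2 from control mice, and KO 1 and KO 2 from mice with a knock-in on both copies of Zfp488 (Zfp488KI/KI), a genotype the sample labels write as Zfp488 KO. Zfp488 encodes a zinc finger protein of the oligodendrocyte lineage, and the study concerns the timing of myelination. The labels state no strain, no sex and no number of animals per library, so the spread between libraries of a group may be technical.

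The respiratory chain consists of protein complexes in the inner mitochondrial membrane. Complex I takes electrons from NADH and complex II takes them from succinate, ubiquinone carries them to complex III, cytochrome c carries them on to complex IV, and complex IV passes them to oxygen. Complexes I, III and IV pump protons, and complex V, the ATP synthase, uses the proton gradient to make ATP. Most subunits are encoded in the nucleus and imported, and a core of complexes I, III, IV and V is encoded in mitochondrial DNA. Oligodendrocytes that start to myelinate build large amounts of lipid and protein, and cells early in this process are known to respire strongly.

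Many nuclear genes of the chain are known to carry binding sites for NRF1 (nuclear respiratory factor 1), a transcription factor that controls mitochondrial genes. Promoter windows of RefSeq (GRCm38.p6), reaching from 250 bases before to 50 bases after the gene start, were found for 69 of the 81 tested subunits. Some genes have several windows, and a match in any of them was counted. The letters GCGCATGCG, on either strand, stood in 9 of these 69 subunits (13.0%), against 4.44% of 7720 tested genes with a window and 1.95% of 27025 genes with a window in all. The stretch of 150 bases before the start of Cycs, the gene of cytochrome c, shows the letters in their setting at chr6:50566570-50566719 (minus strand), in capitals.

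Cycs: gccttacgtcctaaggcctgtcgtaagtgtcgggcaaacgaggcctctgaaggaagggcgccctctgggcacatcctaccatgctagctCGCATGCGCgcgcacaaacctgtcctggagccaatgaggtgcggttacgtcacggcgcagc

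The other 8 windows are shown as 30 bases around the letters, 5′ to 3′ on the strand of the gene, to let the flanks be compared. Capitals mark the letters, which read GCGCATGCGC where both strands match.
Ndufa8, chr2:36049329-36049358, minus strand: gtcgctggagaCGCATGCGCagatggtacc
Ndufa11, chr17:56717692-56717721, plus strand: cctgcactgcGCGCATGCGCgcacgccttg
Uqcrc1, chr9:108936668-108936697, plus strand: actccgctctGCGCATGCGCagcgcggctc
Uqcr11, chr10:80406808-80406837, minus strand: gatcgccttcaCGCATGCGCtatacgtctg
Cox6a1, chr5:115349101-115349130, minus strand: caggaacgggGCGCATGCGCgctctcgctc
Atp5g2, chr15:102671070-102671099, minus strand: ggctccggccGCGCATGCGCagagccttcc
Atp5k, chr5:108434430-108434459, minus strand: tttcactgcgGCGCATGCGCctttctggct
Atp5l, chr9:44920963-44920992, minus strand: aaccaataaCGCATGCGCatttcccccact

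These 9 genes are spread over complexes I, III, IV and V and cytochrome c, with no complex II gene among them. The letters end 1 base before the start in Ndufa8 and begin 61 bases before it in Cycs and far upstream in Atp5l. In Uqcr11 they span the start, and in Uqcrc1 they begin at base 31 of the transcript. A core of ETS factor sites, CCGGAAG, stood in 24.6% of the subunits with a window against 21.1% of the tested genes with a window. A YY1 core, AAGATGGC, stood in 14.5% against 5.80%, and an SP factor core, GGGCGG, in 43.5% against 69.2%. The 4 motifs were searched on both strands, can overlap each other, and were chosen after expression values had been seen. A match describes the letters of the window and is not evidence of binding.

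FPKM, which scale fragment counts by the length of the transcript and the size of the library, allow levels to be compared between genes per unit of length. The 4 libraries summed to between 311846 and 341145 FPKM over all rows. From the steps of low values, 1 FPKM on 1 kb was worth about 37.0 to 43.7 reads, which put the median subunit at roughly 8834 to 11523 reads in each library, with a counting error near 1.0% of its value. These depths are approximate, since the transcript lengths used for the FPKM are not given. Zfp488 itself was at 6.61 and 5.29 FPKM in WT, against 4.82 and 4.11 in KO. The KO libraries were thus lower, though far from empty, with a log2 difference of -0.34 (SE 0.33, limma adjusted p = 0.950), and the part of the transcript that the allele removes is not stated. The 10 oligodendrocyte markers were above 0 in each library, from Olig1 (between 1249 and 1487 FPKM) down to Mog (17.0 and 7.77 in WT, 5.42 and 0.758 in KO). Of these 10, 5 were lower in both KO libraries, among them Mog and Mbp (103 and 74.1 FPKM in WT, against 65.0 and 29.6 in KO). Another 2 were higher (Olig1 and Olig2) and 3 overlapped (Cnp, Ugt8a and Sox10), while 3 of 4 precursor markers were higher in both (Pdgfra 18.5 and 26.8, 40.2 and 42.5). These counts, and those of neuron markers below, stand against 18.3% lower and 16.6% higher among the 10754 tested genes. In bulk RNA, fewer cells of a type and less RNA per cell cannot be told apart. Summed markers of other cells were higher in the libraries numbered 2 than in those numbered 1 in both genotypes, and those of neurons and astrocytes were also higher in KO than in WT at each number. The 6 endothelial and mural markers summed to 0.454 and 38.0 FPKM in WT, against 0.038 and 37.6 in KO, with Pecam1 at or near 0, and the 7 microglia markers to 19.7 and 69.9, 24.3 and 73.0. The 7 astrocyte markers summed to 91.5 and 170, 117 and 258 FPKM. The largest part of this was Slc1a3 (71.9 and 102, 92.4 and 187). Groups overlapped in all 5 tested astrocyte markers, and Gja1 was at 1.10 and 37.9, 3.35 and 25.9. The 9 neuron markers summed to 15.8 and 31.9, 23.9 and 40.3. Of 3 tested, Stmn2 (1.35 and 0.503, 3.67 and 6.57) and Snap25 (3.46 and 5.06, 6.83 and 6.82) were higher in both KO libraries. The third and strongest, Tubb3, overlapped (10.4 and 24.2, 9.55 and 24.6). The 5 erythroid markers summed to 567 and 965, 485 and 899. The part of these cell markers in the results below was not tested.

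Genes of the chain were strongly expressed, and 75 of 81 stood in the highest sixth of tested genes by level. The 81 subunits with at least 1 FPKM in at least 2 libraries had a median level of 185 FPKM over the 4 libraries, against 6.25 over all tested genes, and 62 of the 81 reached 100 FPKM. Their transcripts were also short, with a median of 1046 bp for the longest annotated transcript against 2924 bp over the 10320 tested genes with a length. The 4 untested subunits were Cox4i2, Cox6a2, Cox8b and Cox8c, all tissue-restricted forms of complex IV subunits. The plot of levels by library gives tested subunits in the 4 libraries.

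**Figure D1:**
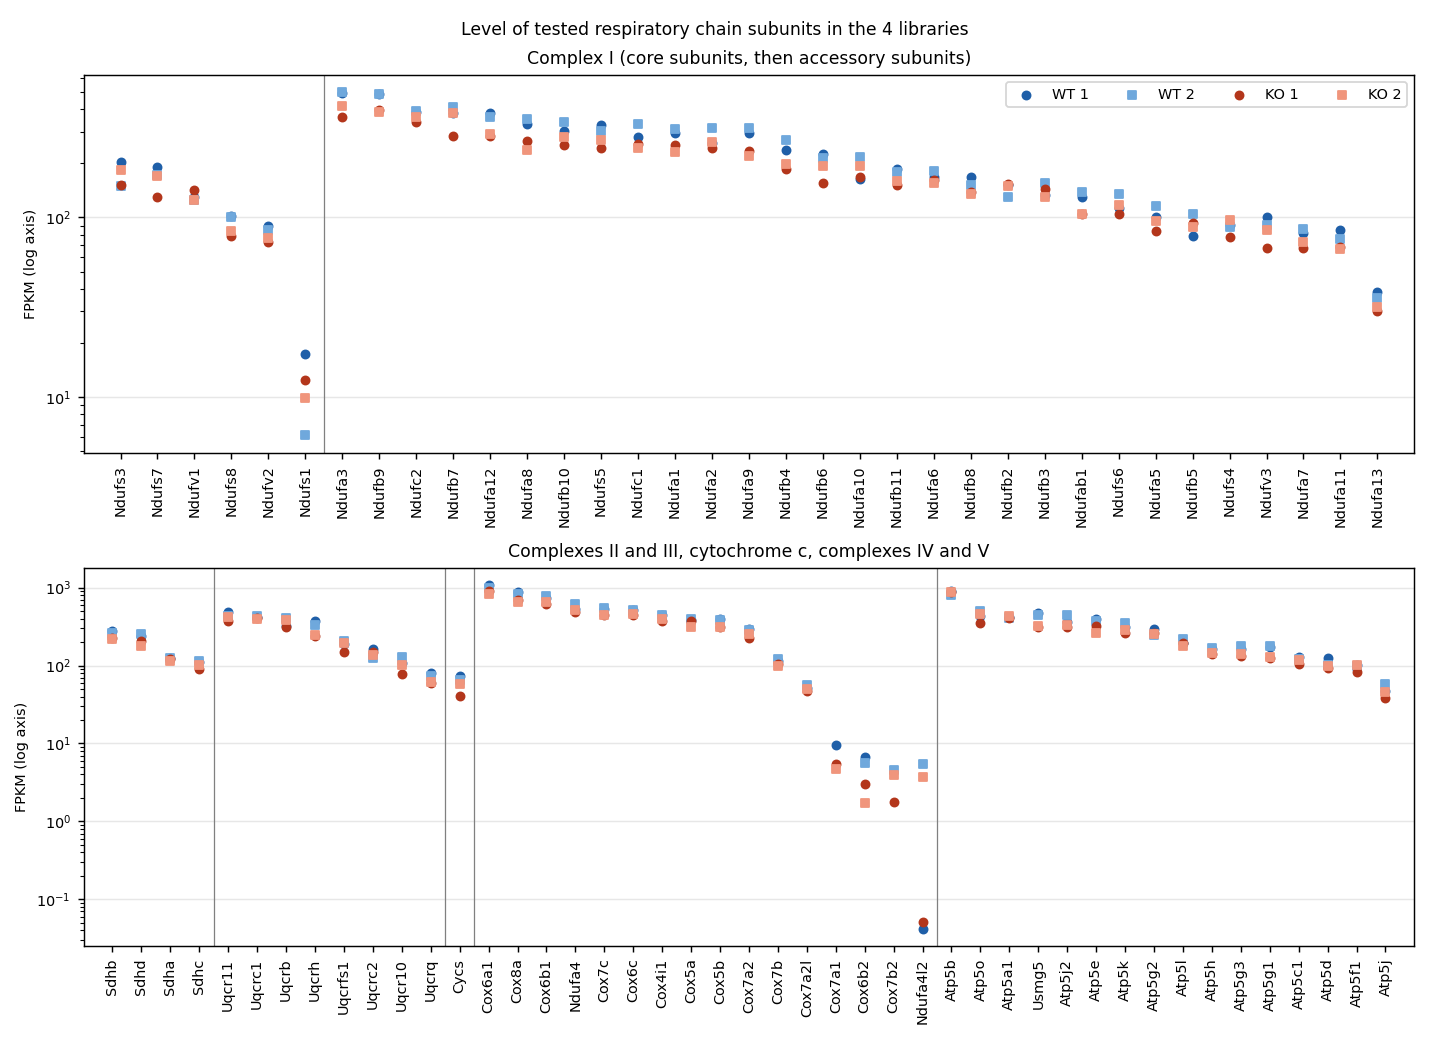
FPKM on a log axis (y) for tested subunits (x), ordered by level within complex, with 1 point per library (blue WT, red KO; circles library 1, squares library 2). Values listed at 0 are not drawn (Cox7a1 in WT 2 and Cox7b2 in WT 1). For most subunits both red points lie below both blue points by a margin that is small beside the range of levels between genes.

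Subunit transcripts were lower in the KO libraries as a group, by about a sixth of their level. Both KO libraries were below both WT libraries in 59 of 81 tested subunits, against 18.3% of the 10754 tested genes, and above them in 0, against 16.6%. Groups overlapped in the other 22. The log2 difference was negative in 72 of 81, against 50.0% of all tested genes, and its median was -0.24, against 0.00 over all tested genes. The median ratio of KO to WT was 83.7%. By limma on log2(FPKM + 1), 0 subunits and 0 genes in all (0%) had an adjusted p under 0.05, the smallest adjusted p of any gene being 0.859. At an unadjusted p under 0.05 stood 17 subunits, all lower in KO, against 5.65% of all tested genes (2.85% lower and the rest higher). Within genotypes, the libraries differed by a median of 0.12 (WT) and 0.11 (KO) on the log2 scale, and in 51 of 81 subunits the difference between genotypes was larger than both of these gaps for that gene. The share of all tested genes with such a difference was not computed. The count therefore does not show whether subunits exceeded these gaps more often than other genes. The 81 subunits together summed to 21011 and 21173 FPKM in WT and to 17578 and 18258 in KO, or 6.24% and 6.21% of all FPKM in WT and 5.64% and 5.70% in KO. Rescaled so that each library sums to the same total (TPM), 45 of 81 subunits were lower in both KO libraries, against 13.1% of tested genes, 4 were higher, against 21.7%, and the median was -0.15.

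**Figure D2:**
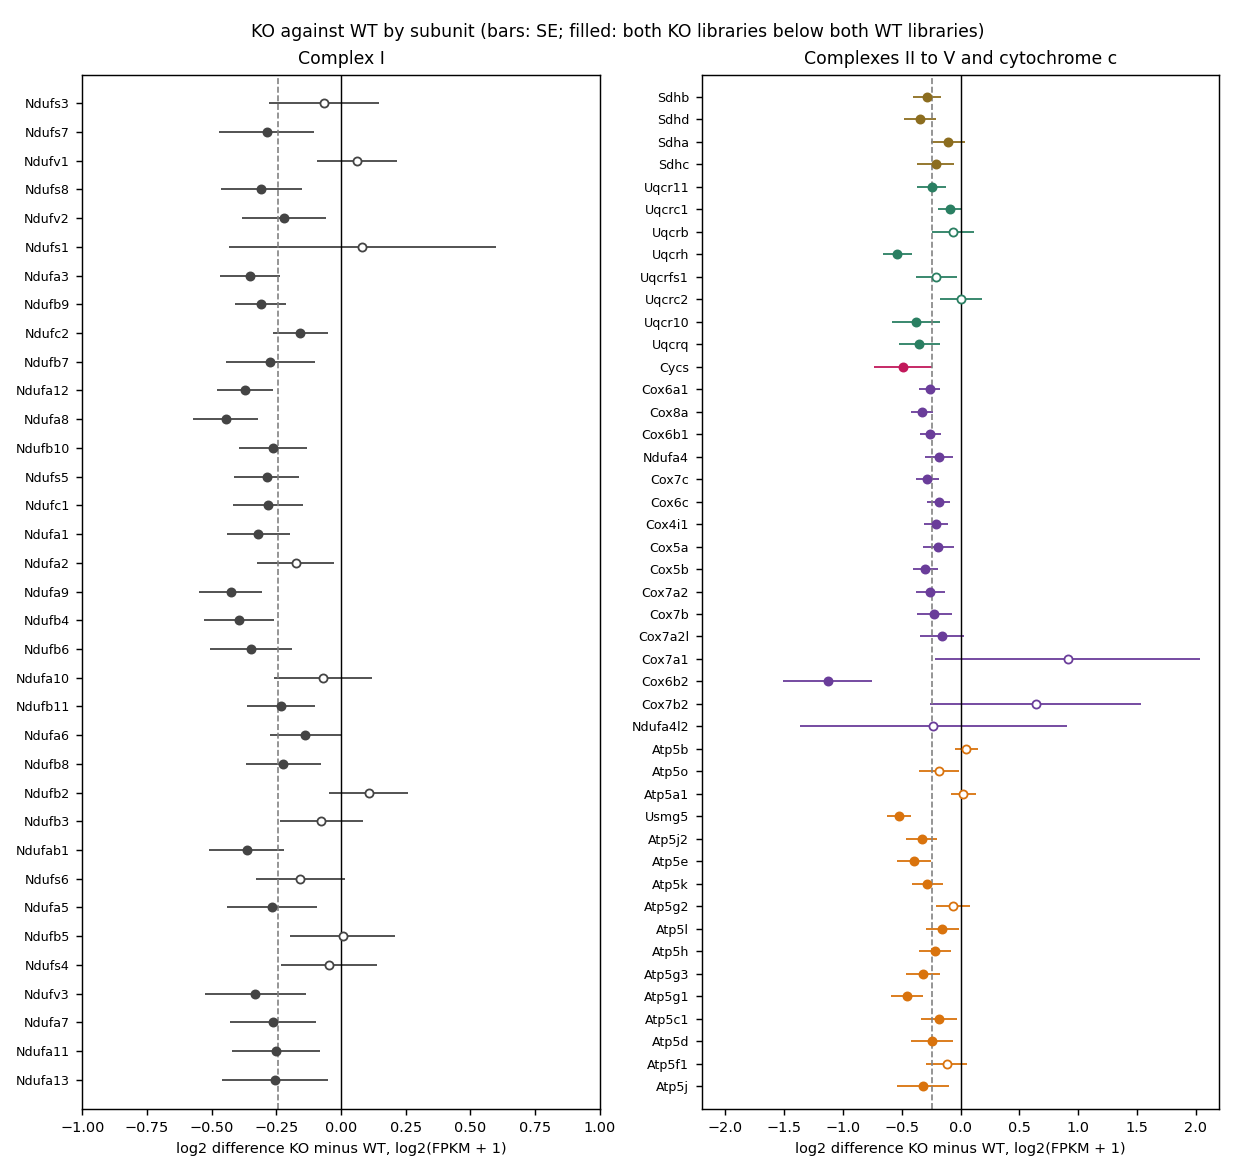
Log2 difference KO minus WT on the log2(FPKM + 1) scale (x) for tested subunits (y), with bars for the SE from limma, filled points where both KO libraries lie below both WT libraries, and dashed lines at the median of the 81 subunits. The panels have different x ranges. Most points lie between -0.50 and 0, and the large catalytic subunits Atp5b, Atp5a1, Ndufv1 and Ndufs1 lie at or just above 0.

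Complex I, NADH dehydrogenase, has a core that carries the flavin and the iron-sulfur clusters and a shell of accessory subunits. The shell was lower more often than the core: 22 of 29 accessory subunits were lower in both KO libraries (median -0.26), against 3 of 7 nuclear core subunits (median -0.15), a difference that was not tested. With the trend over transcript length and level removed, as described below, these medians were -0.04 (accessory) and -0.02 (core). Counts of lower genes by complex, here and below, stand against 18.3% of all tested genes. Among the 564 tested genes that were both short and strongly expressed, described below, the share was 51.2%. Ndufs8, a core subunit with iron-sulfur clusters, was at 102 and 100 FPKM in WT, against 79.0 and 84.1 in KO (log2 difference -0.31, SE 0.16). Its groups were apart, as were those of Ndufs7, which hands electrons on to ubiquinone, at 191 and 172 against 130 and 169 FPKM (-0.29, SE 0.18), although KO 2 came close to WT 2. Ndufv2 of the NADH-oxidizing module was at 89.4 and 85.4 FPKM in WT, against 73.2 and 76.6 in KO (-0.22, SE 0.16).

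The remaining core genes overlapped between the groups. Ndufv1, the subunit that binds NADH and the flavin, was at 131 and 125 FPKM in WT, against 143 and 125 in KO (0.06, SE 0.15). Ndufs1, the largest subunit of the complex, stood far below the rest of the core at 17.3 and 6.11 FPKM in WT, against 12.5 and 9.81 in KO (0.08, SE 0.52). The KO values of Ndufs1 lay between those of the WT libraries, and its exons share positions with Eef1b2 on the opposite strand.

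Among accessory subunits, Ndufa8 of the proton-pumping arm showed the lowest KO values relative to WT. It was at 331 and 352 FPKM in WT, against 265 and 236 in KO (log2 difference -0.45, SE 0.13, limma unadjusted p = 0.016, adjusted p = 0.859). Ndufa9, which sits near the ubiquinone site, was at 294 and 316 FPKM in WT, against 235 and 219 in KO (-0.43, SE 0.12). For both genes the libraries of a genotype lay closer to each other than to those of the other genotype. Ndufb4 was at 238 and 269 FPKM against 186 and 198 (-0.40, SE 0.13), and the strongest accessory gene, Ndufa3, at 491 and 502 against 364 and 416 (-0.35, SE 0.12). Of the 36 complex I genes, 25 were lower in both KO libraries and 11 overlapped, and the members furthest above 0 were Ndufb2 (152 and 130 FPKM in WT, 153 and 151 in KO, 0.11, SE 0.15) and Ndufs1.

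Complex II, succinate dehydrogenase, is also an enzyme of the tricarboxylic acid cycle and has no subunit from mitochondrial DNA. Its 4 genes were lower in both KO libraries (median -0.25). Sdhd, a membrane anchor, was at 238 and 250 FPKM in WT, against 205 and 180 in KO (-0.34, SE 0.13). The iron-sulfur subunit Sdhb, the strongest of the 4, was at 275 and 260 FPKM against 223 and 216 (-0.28, SE 0.12). Sdhc, the other anchor, was at 110 and 113 against 90.5 and 102 (-0.21, SE 0.16). Sdha, the flavoprotein and by far the longest coding sequence of the complex, differed least, at 126 and 127 against 120 and 115 FPKM (-0.10, SE 0.14).

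In complex III, the cytochrome bc1 complex, 4 of 5 small subunits were lower in both KO libraries, while the large core proteins were nearly level. Uqcrh, the hinge protein beside cytochrome c1, was at 372 and 327 FPKM in WT, against 237 and 243 in KO, or 68.7% of the WT mean (log2 difference -0.54, SE 0.13, limma unadjusted p = 0.008, adjusted p = 0.859). It had the largest decrease of all subunits outside the weakly expressed Cox6b2. The gene lies at chr4:116066965-116075071 (GRCm38), and pseudogenes named after it exist, so reads may be shared. Uqcr10 was at 107 and 127 FPKM against 78.5 and 102 (-0.38, SE 0.20), and Uqcrq at 80.3 and 73.2 against 59.3 and 60.6 (-0.35, SE 0.17). Both were lower in each KO library, as was the strongest gene of the complex, Uqcr11, at 490 and 436 against 368 and 413 FPKM (-0.24, SE 0.12). The fifth small subunit, Uqcrb, was at 317 and 403 FPKM against 309 and 379, with overlapping groups (-0.06, SE 0.18). Uqcrc1, a core protein, was at 420 and 436 FPKM in WT, against 404 and 399 in KO (-0.09, SE 0.10), a gap of a few percent that turned to 0.01 after rescaling to TPM. For the Rieske iron-sulfur protein Uqcrfs1 (190 and 206 against 151 and 194 FPKM, -0.21, SE 0.17) the groups overlapped. Over the 8 genes, 5 were lower in both KO libraries, with a median of -0.22, which became -0.13 without KO 1 and -0.35 without KO 2.

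Cycs, the carrier between complexes III and IV, was at 72.8 and 65.3 FPKM in WT, against 40.5 and 58.7 in KO (-0.49, SE 0.25). KO 1 was well below the other libraries and KO 2 close to WT 2, and the log2 difference was -0.23 without KO 1 and -0.75 without KO 2. Pseudogenes named after Cycs also exist, and no source used here says how reads that fit several places were counted.

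Complex IV, cytochrome c oxidase, was lower in FPKM throughout among its broadly expressed genes. All 12 nuclear genes that are expressed broadly, counting Ndufa4 and the supercomplex factor Cox7a2l, were lower in both KO libraries (median -0.24, from -0.33 to -0.16). With the trend over transcript length and level removed, as described below, the median of these 12 was -0.03. Of the 16 tested complex IV genes, 5 were then lower in both KO libraries. Cox6a1 was the strongest subunit gene of the whole chain, at 1073 and 993 FPKM in WT, against 893 and 831 in KO (-0.26, SE 0.09). Cox8a was at 871 and 817 FPKM against 692 and 655 (-0.33, SE 0.09), and Cox5b at 392 and 380 against 311 and 315 (-0.30, SE 0.11). Each of these had KO libraries below WT libraries by more than the gap within a genotype. Cox4i1, the general form of the subunit through which ATP inhibits the enzyme, was at 444 and 449 FPKM against 373 and 400 (-0.21, SE 0.10). Cox7a2 was at 290 and 284 against 228 and 252 (-0.26, SE 0.12). Ndufa4, first assigned to complex I and now placed in complex IV, was at 531 and 617 FPKM against 490 and 518 (-0.18, SE 0.12), with KO 2 only slightly below WT 1.

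Tissue-restricted forms of complex IV subunits were weak or absent. Cox4i2, the lung form, was listed at 0 in WT 1 and KO 2, at 1.17 FPKM in WT 2 and at 0.009 in KO 1, so Cox4i1 made up at least 99.7% of the pair in each library. Cox6a2 and Cox8b, the heart and muscle forms, were listed at 0 in 3 libraries each, with 0.038 FPKM in KO 1 and 0.071 in KO 2 respectively, and Cox8c at 0 in the 4 libraries. Their broadly expressed partners Cox6a1 and Cox8a thus held almost all of the signal of their families. Cox6b2, known from testis, was the exception among weak forms in being lower in both KO libraries, at 6.78 and 5.68 FPKM in WT, against 3.02 and 1.70 in KO (-1.13, SE 0.38, limma unadjusted p = 0.030, adjusted p = 0.859). It made up 0.906% and 0.733% of the Cox6b pair in WT and 0.490% and 0.261% in KO. Cox7a1, the heart and muscle form of Cox7a2, was listed at 9.58 and 0 FPKM in WT, against 5.50 and 4.76 in KO, and Ndufa4l2, a form induced by hypoxia and present in mural cells, at 0.042 and 5.49 in WT and 0.052 and 3.67 in KO. Ndufa4l2 thus followed the library number and not the genotype, as the endothelial and mural markers did.

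In complex V the genes of the catalytic barrel were level while most small subunits were lower. Atp5b, the catalytic beta subunit, was at 892 and 795 FPKM in WT, against 871 and 873 in KO (0.05, SE 0.10). Atp5a1, the alpha subunit, was at 419 and 406 FPKM against 403 and 435 (0.02, SE 0.11). For both genes the groups overlapped. Atp5e, the small epsilon subunit of the central stalk, was at 392 and 375 FPKM against 323 and 262 (-0.40, SE 0.14), lower in both KO libraries. The 4 small membrane subunits (Usmg5, Atp5j2, Atp5k and Atp5l) were lower in both KO libraries, with a median of -0.31. Usmg5, also known as DAPIT, which takes part in joining ATP synthase dimers, was at 465 and 450 FPKM in WT, against 313 and 323 in KO (-0.52, SE 0.10, limma unadjusted p = 0.004, adjusted p = 0.859). The gap between its genotypes was many times that within them. Usmg5 lies at chr19:47083464-47090647 (GRCm38), with exon positions shared with Taf5 on the opposite strand.

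The c ring of the synthase, which turns as protons pass, is built from identical proteins made by 3 genes. Atp5g1 was at 171 and 176 FPKM in WT, against 124 and 128 in KO (-0.46, SE 0.14). Atp5g3 was at 163 and 179 against 133 and 140 FPKM (-0.32, SE 0.14). Atp5g2, the strongest, was at 295 and 243 against 261 and 252 FPKM, with overlapping groups (-0.06, SE 0.14). Atp5g1 therefore held 27.2% and 29.5% of the family's FPKM in WT and 24.0% and 24.6% in KO. Of the stalk genes that hold the barrel still, 2 of 4 were lower in both KO libraries (Atp5j and Atp5h). Over complex V, 11 of 16 genes were lower, with a median of -0.23.

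Summed by complex, KO libraries were at 81.5% and 86.3% of the WT mean for complex I, 85.2% and 81.8% for complex II, 82.2% and 90.3% for complex III, 84.3% and 84.0% for complex IV, and 85.8% and 89.3% for complex V. The WT libraries stood between 99.0% and 101% of that mean for each complex. The sum over all rows of the table was itself at 92.0% and 94.6% of the WT mean in KO. Sums of the 13 subunits from mitochondrial DNA did not separate the genotypes, at 94.7% and 105% in WT and 106% and 80.8% in KO.

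**Figure D3:**
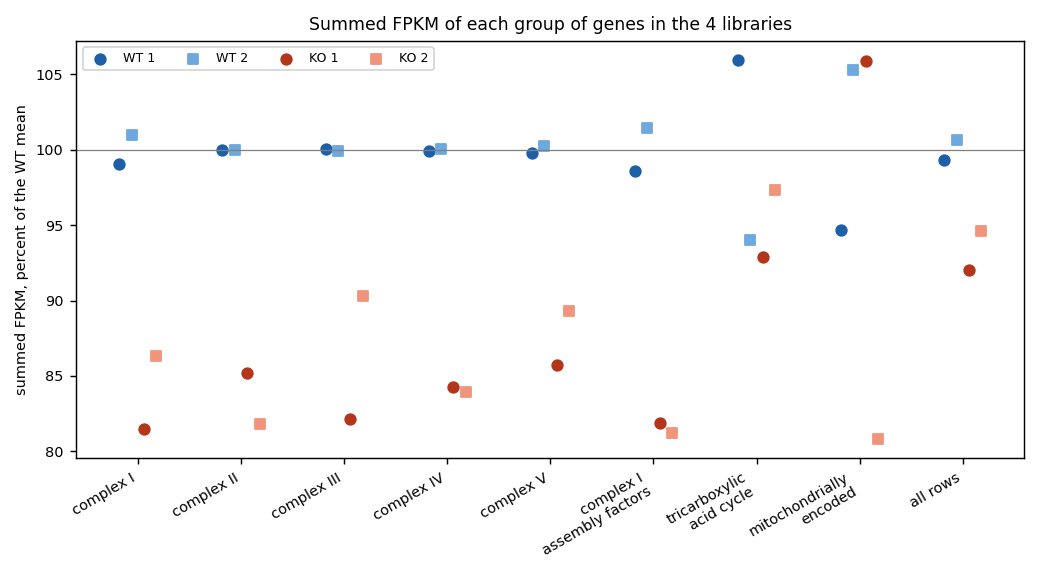
Summed FPKM of each gene group (x) as a percent of the mean of the WT libraries (y), 1 point per library. For the 5 complexes and the complex I assembly factors both KO points lie below both WT points, between 81.2% and 90.3%. The sum over all rows separates in the same direction by less, at 92.0% and 94.6% in KO against 99.3% and 101% in WT. For the tricarboxylic acid cycle (92.9% and 97.3% in KO, 106% and 94.0% in WT) and the mitochondrially encoded subunits, KO and WT points overlap.

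The size of the encoded protein went with the difference. Coding length was examined after the values of the large catalytic subunits had been seen. Of the 19 subunits with up to 300 bp of coding sequence, tissue forms left out, 18 were lower in both KO libraries (median -0.28). Of the 9 subunits with more than 1200 bp, among them Ndufs1, Ndufv1, Ndufv3, Sdha, Uqcrc1, Uqcrc2, Atp5a1 and Atp5b, 3 were lower (median 0.00). Counts in the classes between were 20 of 25 (301 to 450 bp), 16 of 22 (451 to 900 bp) and 1 of 2 (901 to 1200 bp). In these 3 classes, 39.8%, 24.4% and 16.3% of all tested genes were lower. Shares for the end classes are given below. Over the 77 subunits, the log2 difference went with the log2 coding length at Pearson r = 0.50 and Spearman rho = 0.41, as a description across genes measured in the same libraries. With the 4 tested tissue forms included (81 subunits), r was 0.22 and rho 0.35. Against log2 transcript length the same difference went less closely, at r = 0.22 and rho = 0.21 over the 77 subunits. Over the 81 these were 0.03 and 0.15. Exceptions, named after their values were seen, were Ndufv3 (1404 bp, -0.33, SE 0.20) and Ndufa9 (1131 bp) on the long side and Ndufb2 (315 bp) and Uqcrb (333 bp, -0.06, SE 0.18) on the short side.

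The same gradient ran through the table as a whole. Among all tested genes, those with up to 300 bp of coding sequence had a median of -0.23 and 42.9% of them were lower in both KO libraries, whereas those with more than 1200 bp had a median of 0.10 and 11.2% were lower. Among the 564 genes that were in both the shortest sixth by transcript and the highest sixth by level, 45 of them subunits, the median was -0.24 and 51.2% were lower in both KO libraries. When the trend of the log2 difference over transcript length and level was removed (loess over 10320 genes), 27 of 81 subunits were lower in both KO libraries, against 17.2% of tested genes, 5 were higher, against 15.0%, and the median was -0.05. With the length of the longest protein-coding transcript in place of the longest of any kind, a choice made after the first values were seen, 23 were lower, against 16.9%, 6 were higher, and the median was -0.03. After removal of the first trend, Usmg5 was at -0.45, Atp5g1 at -0.47, Cycs at -0.50 and Uqcrh at -0.30, while Cox4i1 was at 0.03 and Ndufa4 at 0.01. That trend took the longest annotated transcript of any kind as length. For Usmg5 (2733 bp), Atp5g1 (4715 bp) and Cycs (3123 bp) this transcript is far longer than the coding sequence (174, 408 and 315 bp). Uqcrh (801 bp) and Cox4i1 (765 bp) have shorter transcripts. Over the 77 subunits, the values left after removal ran against log2 transcript length (Pearson r = -0.34, Spearman rho = -0.24). The part of length and level in the difference was not tested.

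**Figure D4:**
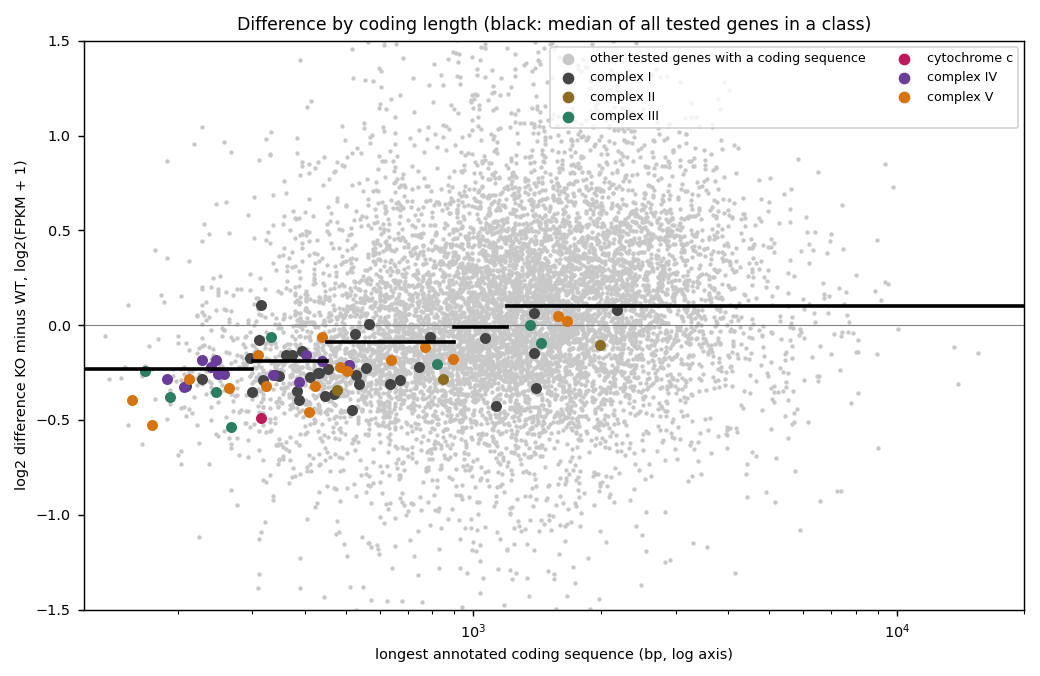
Log2 difference KO minus WT (y) against the longest annotated coding sequence in bp on a log axis (x), grey for tested genes outside the chain, coloured for the 77 subunits by complex, and black bars for the median of all tested genes in each length class. Points outside -1.5 to 1.5 are not drawn. The subunits run from about -0.28 among the shortest to 0.00 among the longest, and the black medians from -0.23 to 0.10.

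Genes of other large protein complexes are given beside these, against 18.3% lower and 16.6% higher over all tested genes. Of 82 tested genes of cytosolic ribosomal proteins, 68 were lower in both KO libraries (82.9%) and 0 higher (median -0.30). Mitochondrial ribosomal proteins were lower in 29 of 77 (37.7%) and higher in 5 (median -0.19), and proteasome subunits lower in 15 of 36 (41.7%) and higher in 4 (median -0.21). These lists were taken by symbol, for comparison.

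Assembly factors, which build the complexes without staying in them, were expressed more weakly. Counts of lower and higher genes again stand against 18.3% and 16.6% over all tested genes. Of the 7 complex I assembly factors, 3 were lower in both KO libraries (median -0.27), a count that became 5 when either KO library was left out (against 32.7% of tested genes without KO 1 and 33.8% without KO 2), and the median was -0.13 without WT 1. Ndufaf6 was at 3.12 and 2.78 FPKM in WT, against 1.35 and 2.47 in KO (-0.47, SE 0.38). Ndufaf2 was at 40.6 and 46.5 against 36.6 and 30.6 FPKM (-0.37, SE 0.22), and Ndufaf3, the strongest, at 69.6 and 76.8 against 55.7 and 59.9 (-0.34, SE 0.18). Among factors for complex IV, 10 of 22 were lower and 1 higher (median -0.32). Coa6, which helps to deliver copper, was at 36.3 and 48.8 FPKM in WT, against 20.2 and 30.7 in KO (-0.73, SE 0.31), and Taco1, an activator of COX1 translation, at 4.69 and 5.33 against 3.23 and 2.82 (-0.58, SE 0.33). For complex II, 2 of 4 factors were lower, both involved in maturing the catalytic subunits. Sdhaf1 was at 134 and 74.0 FPKM against 62.3 and 59.4 (-0.71, SE 0.31), and Sdhaf4 at 78.5 and 102 against 52.4 and 70.0 (-0.56, SE 0.24). Complex III factors went both ways, with Uqcc3 at 52.7 and 82.0 against 43.6 and 39.8 FPKM (-0.65, SE 0.27) and Uqcc1 at 3.92 and 4.97 against 7.64 and 7.59 (0.67, SE 0.31). Atpif1, the inhibitor of ATP hydrolysis by complex V, was at 197 and 202 FPKM in WT, against 148 and 159 in KO (-0.38, SE 0.13), and Tmem70, which helps to assemble that complex, was higher in both KO libraries, at 12.8 and 18.3 against 22.9 and 22.1 (0.53, SE 0.28).

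Counts in neighbouring parts of mitochondrial metabolism stand against 18.3% lower and 16.6% higher over all tested genes. Of 13 tricarboxylic acid cycle genes, 3 were lower in both KO libraries (23.1%) and 2 higher (median -0.05), shares near those of all genes. Dlst, of the oxoglutarate dehydrogenase complex, was among the lower genes, at 16.0 and 10.1 against 8.19 and 10.0 (-0.45, SE 0.34). Other electron carriers and entry points were lower in 5 of 15 and higher in 0 (median -0.11), among them the ubiquinone synthesis genes Pdss1 (-0.55, SE 0.38) and Coq5 (-0.50, SE 0.30). Genes of import and the outer membrane were lower in 8 of 20 and higher in 0 (median -0.16), led by the inner membrane channel genes Timm23 (170 and 113 FPKM against 100.5 and 91.6, -0.52, SE 0.24) and Timm17a (153 and 146 against 102 and 112, -0.48, SE 0.15). Of the 13 subunits encoded in mitochondrial DNA, 2 were lower in both KO libraries (15.4%, near the share of all genes) and 0 higher (median -0.12). Groups overlapped in the other 11. In these 11, KO 1 lay above the WT mean and KO 2 below both WT libraries, as in the sums (106% and 80.8% of the WT mean). The log2 difference was negative in all 13, against 50.0% of all tested genes, but in these 11 the sign rested on KO 2 alone. The lower 2 were ND3 at 169 and 152 FPKM against 128 and 124 (-0.35, SE 0.15) and ND2 at 199 and 216 against 177 and 160 (-0.30, SE 0.14). Of 16 regulators of mitochondrial biogenesis, 12 were tested and 0 of these were lower. Nrf1 and Nfe2l2 lay higher in both KO libraries but reached the level for testing only through those libraries, so their direction was set by the filter: Nrf1 was at 0.922 and 0.361 FPKM in WT, against 1.30 and 1.15 in KO, and Nfe2l2 at 0.111 and 0.011 against 1.08 and 2.46. Ppargc1a, a coactivator that drives mitochondrial gene expression in other tissues, did not reach the level for testing, at 0.292 and 0.446 FPKM in WT, against 0.120 and 0.381 in KO.

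Windows with NRF1 letters occurred in 8 of the 54 subunits that were lower in both KO libraries and have a window, and in 1 of the 15 that overlapped. For the ETS letters these counts were 16 of 54 and 1 of 15, for YY1 7 of 54 and 3 of 15, and for SP 24 of 54 and 6 of 15. These are descriptions of small counts, with no test. Of the 94 members, 33 share exon positions with another annotated gene, 29 of them on the opposite strand, and 6 have pseudogenes named after them (Ndufab1, Uqcrh, Cycs, Atp5c1, Atp5k and Atp5l). Since the strand setting is not given, reads of such partners cannot be told apart.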

How the data were processed

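RNA had been extracted with the RNeasy Micro Kit and made into Illumina libraries, per the labels' protocols. The submitters' processing notes name TopHat, without a version, and the mm10 build. The authors deposited FPKM for 35869 rows, 1 column per library. No source used here names the program that estimated them, the annotation, the strand setting or the total reads.

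Values were analysed as log2(FPKM + 1), so differences of weak genes are understated. The 10754 rows with at least 1 FPKM in at least 2 of the 4 libraries were fitted in 1 model with limma 3.58.1 (R 4.3.3; genotype, mean-variance trend, two-sided, Benjamini-Hochberg adjustment, threshold 0.05), after the fit had been tested on simulated data. SE is that of the log2 difference. Members and lists were chosen with earlier results of these data known, so lists were described by counts and medians, with no test of a list. Named were up to 3 genes per complex with the largest difference among those with groups apart, the strongest gene, and a fixed set of well-known subunits; genes that this rule picks but the text omits are not reported here. Ndufb2, Ndufv3 and Uqcrb, Mbp, Pdgfra, Olig1 and Ppargc1a were named after their values were seen. The GENCODE M21 annotation (GRCm38) gave loci and coding lengths, and transcript lengths for 10320 tested rows.

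Alternatives covered the pseudocount, the filter, scaling to TPM, quantile normalization, median centring, removal of the length and level trend, the variance trend, a replicate block and leaving out each library.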

Additional observations from a re-analysis of the deposited data

How the results depend on the processing

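No alternative gave a gene with an adjusted p under 0.05 by limma (0 each time, with 322 to 1123 genes at an unadjusted p under 0.05). With both pseudocounts, both other filters, median centring, no variance trend and the replicate block, the count of lower subunits stayed between 58 and 62 and their median between -0.27 and -0.23. The exceptions among these settings were smaller groups: the median of the complex I assembly factors was -0.19 with a pseudocount of 5, and that of complex II -0.27 with median centring. Part of this agreement was fixed in advance. A pseudocount cannot change which genes are lower in both KO libraries. Dropping the variance trend or adding the block can change neither the counts nor the medians. Among these settings, only the filters and median centring could therefore have moved the counts. Rescaling to TPM gave medians of -0.15 for all subunits, -0.16, -0.15, -0.13 and -0.13 for complexes I, II, III and V, and -0.19 for the complex I assembly factors, with 3 lower genes in complex III and 7 in complex V. Quantile normalization gave 36 lower subunits and a median of -0.10, with 14, 3 and 6 lower in complexes I, III and V, and medians of -0.11, -0.099, -0.060, -0.086 and -0.098 for complexes I to V. With the length and level trend removed, 27 subunits were lower (10, 2, 5 and 5 in complexes I, III, IV and V) and the median was -0.046 (-0.039, -0.11, -0.011, -0.034 and -0.064 for complexes I to V). With the longest protein-coding transcript as the length, added after the values were seen, 23 were lower (10, 2, 4 and 2), the median was -0.029 (-0.025, -0.13, -0.013 and -0.046 for complexes I, II, III and V, and 0.000181 for complex IV, a change of sign), and that of the assembly factors was -0.19. The cause of these shifts was not tested.

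Leaving out each library in turn, the lower subunits numbered 61 to 69 and their median lay between -0.26 and -0.19; with 1 library left in a group, fewer genes can overlap, so these counts stand against 32.7% to 36.6% of tested genes. Medians lay between -0.29 and -0.19 for complex I, -0.26 and -0.22 for complex II, -0.35 and -0.13 for complex III, -0.27 and -0.19 for complex V and -0.31 and -0.13 for the complex I assembly factors, of which 3 to 5 were lower. The lone library is assumed to vary like the other group.

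Single genes near 0 changed sign. Atp5g2 was at 0.037 in TPM, 0.11 after quantile normalization, and 0.18 with either trend removed; Uqcrc1 was at 0.0081 in TPM, 0.087 after quantile normalization and 0.034 with the protein-coding length. Removal of the first and the second trend gave 0.028 and 0.029 for Cox4i1 and 0.0090 and 0.060 for Ndufa4, and the second gave 0.0089 for Uqcr11. Sdha was at 0.040 after quantile normalization and Atp5a1 at -0.0010 after median centring. Leaving out each library gave ranges across 0 for Atp5a1 (-0.034 to 0.079), Atp5b (-0.033 to 0.13), Atp5g2 (-0.20 to 0.075), Ndufs1 (-0.60 to 0.76), Ndufv1 (-0.037 to 0.16), Cox7a1 (-0.79 to 2.61) and Ndufa4l2 (-1.55 to 1.09). Without a change of sign, it moved by over 1.5 times the values of the subunits and carrier Cycs (-0.75 to -0.23), Atp5e (-0.55 to -0.25), Ndufa4 (-0.29 to -0.076), Ndufs7 (-0.48 to -0.098), Sdha (-0.14 to -0.069), Sdhc (-0.30 to -0.13), Uqcr10 (-0.57 to -0.20), Uqcr11 (-0.33 to -0.16), Uqcrfs1 (-0.39 to -0.024), and of other named genes Ndufaf2 (-0.49 to -0.24), Ndufaf6 (-0.75 to -0.19), Coa6 (-1.03 to -0.44), Coq5 (-0.77 to -0.22), Dlst (-0.76 to -0.15), Nrf1 (0.21 to 0.71), Pdss1 (-0.75 to -0.35), Sdhaf1 (-1.13 to -0.28), Sdhaf4 (-0.76 to -0.35), Timm23 (-0.82 to -0.23), Tmem70 (0.28 to 0.77), Uqcc3 (-0.96 to -0.33) and Zfp488 (-0.48 to -0.21).

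The labels number the libraries of each genotype but do not say that a number is shared. Deviations of same-numbered libraries correlated at 0.29 over 10754 genes, as a hint from the data, in a design with only 2 numbers. With the number as a replicate block, 0 genes passed and 1025 stood at an unadjusted p under 0.05 by limma (477 higher, 548 lower). The count and median of the subunits, 59 and -0.24, cannot change with a block in this balanced design. With 2 libraries per group, small differences of single genes could not be established, whereas counting error was small for the tested subunits outside the tissue forms.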
